A study of Homo sapiens with 6 samples.

Results

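The genes described here are 51 regulators and effectors of the cell cycle: cyclins, cyclin-dependent kinases and their inhibitors, E2F transcription factors, pocket proteins, and genes of DNA replication and mitosis. They were chosen by name, out of 20033 protein-coding genes on chromosomes 1 to 22, X and Y in the RefSeq gene table of GRCh38, and all 51 were found there. For each gene the window examined was the gene body with 5 kb beyond either end, and a peak that shared at least 1 bp with it was counted.

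The study mapped where MYT1L, a neuronal zinc-finger protein that binds DNA, sits on chromatin by CUT&RUN, in which an antibody tethers a nuclease to its target and the released DNA is sequenced. The cells came from H1, an established line of human embryonic stem cells, labelled WT (wild type), sampled at day 30; the series' design describes cortical interneurons derived from the stem cells, while the sample labels give the starting cell type. There were 4 libraries made with the MYT1L antibody and 2 made with IgG, which has no chromatin target and measures background. All libraries come from a single cell line, and nothing in the labels says whether replicates were separate differentiations, so the spread between them may be technical. Peak lists record where DNA was enriched and not RNA, so the labelled cell type could not be checked against its marker genes, nor whether a cell cycle gene was expressed.

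In a dividing cell, cyclins activate cyclin-dependent kinases, which phosphorylate the pocket proteins RB1, RBL1 and RBL2 and so release E2F factors to switch on genes of DNA replication. Inhibitors of the CIP/KIP and INK4 families hold the kinases back. Neurons leave the cell cycle as they form, and MYT1L is known mainly as a repressor that acts while neurons are made.

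The MYT1L libraries held 27926, 12310, 18966 and 30086 peaks in replicates 1 to 4, and the IgG libraries 976 and 998. Read depth is not stated. The lowest background of a list was solved from fold and p under the MACS formulas. It was 0.421 to 1.18 fragments in MYT1L and 0.19 to 0.329 fragments in IgG libraries. If each background came from the library itself, its lowest value follows depth, and the controls were the shallower ones. Whether a control library was used instead is not stated. Fold below is the authors' enrichment of a peak over the background used for its list.

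Peaks lay near every one of the 51 genes in at least 1 MYT1L library, against 84.1% of all protein-coding genes, and near few of them in the controls. MYT1L replicate 4 had a peak in the windows of 51 genes, replicate 1 of 44, replicate 3 of 36 and replicate 2 of 23. IgG replicate 1 had a peak at 1 gene and IgG replicate 2 at 3. Every MYT1L library thus lay above both controls, and the libraries with more peaks in all had more of these genes. Over all protein-coding genes the shares were 68.0%, 43.0%, 57.3% and 77.6% in MYT1L replicates 1 to 4, and 1.61% and 2.9% in the IgG libraries. Among the cell cycle genes they were 86.3%, 45.1%, 70.6% and 100%, so replicate 2 stood close to the background of all genes.

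**Figure D1:**
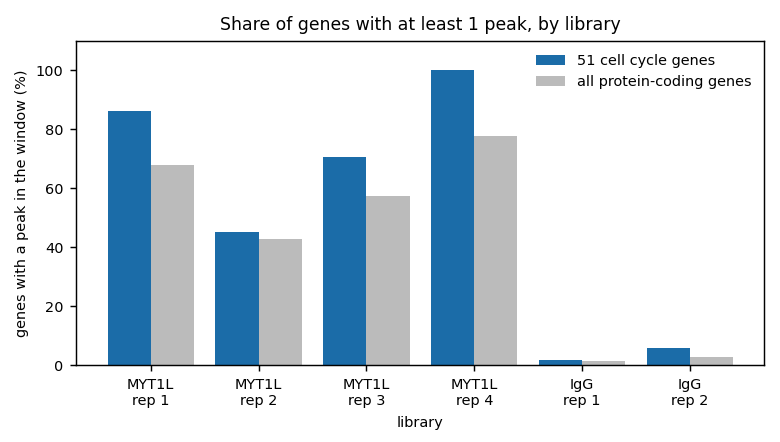
Bars give the percentage of genes with at least 1 peak in the gene body or within 5 kb of either end (y axis, from 0) in each of the 6 libraries (x axis), for the 51 cell cycle genes (blue) and all 20033 protein-coding genes (grey). The blue bars run from 45.1% to 100% in MYT1L and reach at most 5.88% in IgG libraries; in MYT1L replicate 2 the blue bar is at 45.1% and the grey bar at 43.0%.

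The number of cell cycle genes with a peak averaged 38.5 ± 12 (SD, n = 4) with the MYT1L antibody and was 2.0 ± 1.41 (SD, n = 2) with IgG, a difference of 36.5 genes (exact permutation test over 15 splits, two-sided, p = 0.0667, the smallest that 15 splits can give). The number of peaks in their windows was 68, 29, 50 and 94 in MYT1L replicates 1 to 4 and 1 and 3 in the IgG libraries, a difference of 58.2 peaks between group means (exact permutation test, two-sided, p = 0.133). With depth taken from the lowest backgrounds, the groups differed in it, and this bears on the count. After pileups were scaled down to the depth of IgG replicate 1, 1, 20, 4 and 40 of the genes kept a peak in MYT1L replicates 1 to 4. The controls had 1 and 3 (difference 14.2, exact permutation test, two-sided, p = 0.4). Among the 976 strongest peaks of each library the order turned, with 0, 1, 0 and 1 genes in MYT1L and 1 and 3 in IgG libraries, a difference of -1.50 genes (exact permutation test, two-sided, p = 0.267).

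Peaks of the MYT1L libraries that overlapped were joined into regions, and a region with peaks in at least 3 of the 4 libraries was called reproducible. Joining ran along chains of overlaps, so not every pair of peaks in a region need overlap. A reproducible region that overlapped no IgG peak lay in the window of 31 of the 51 genes, or 60.8%, against 48.0% of all protein-coding genes. Within 1 kb of the gene start the count was 24 of 51, or 47.1%, against 38.5% of all genes; where the promoter table lists no start, as for 10 of the 51, either gene end was taken. Among the 41 genes with a listed start it was 18, or 43.9%, against 40.4% of such genes. Without MYT1L replicate 2, and with peaks asked for in 2 of the remaining 3 libraries, 46 genes had a region in the window, against 63.3% of all, and 38 had one at the start, against 50.9%. With regions in all 4 libraries the count was 13 of 51, or 25.5%, against 25.3% of all genes, so the best supported regions were as frequent at these genes as at others. The median length was 19.2 kb for the cell cycle genes and 24.1 kb for all.

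By role, all 3 pocket protein genes, 3 of 4 INK4 inhibitors, 4 of 5 E2F repressors, 3 of 4 cyclin-dependent kinases and 5 of 8 cyclins had a reproducible region without IgG peak. So did 5 of 9 genes of replication, 2 of 3 CDC25 phosphatases and MDM2. The count was 1 of 3 each among CIP/KIP inhibitors and E2F activators, 2 of 6 among mitotic genes and 1 of 2 among proliferation markers. With groups of 1 to 9 genes, and 48.0% of all genes called, none of these shares can be read as particular to a role. The counts also moved with the libraries used. Without replicate 2 they were 3 of 3 for E2F activators, 9 of 9 for replication and 5 of 6 for mitotic genes. Of all genes 63.3% were then called. With every MYT1L list shortened to the same number of its strongest peaks, pocket proteins had 0 of 3 and INK4 inhibitors 1 of 4. The share over all genes was then 33.7%.

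**Figure D2:**
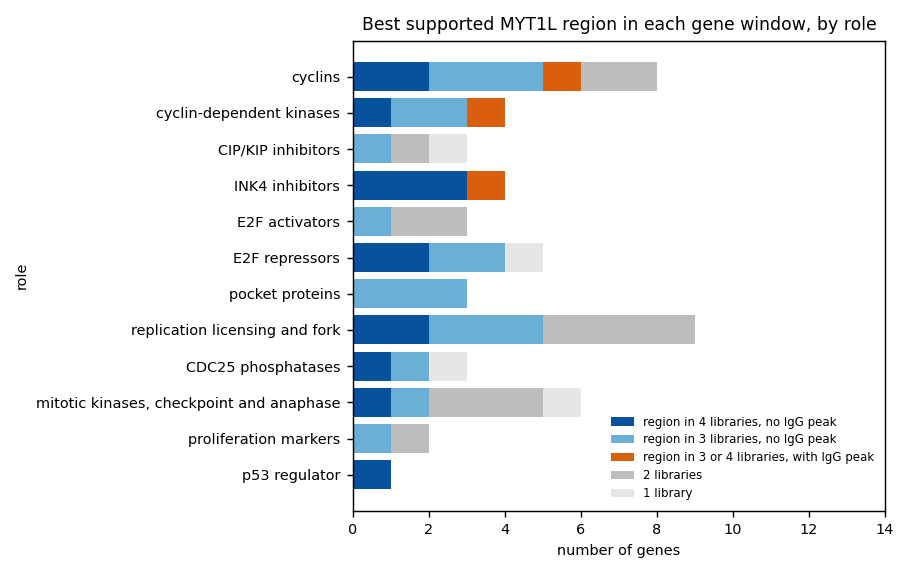
Stacked bars count the genes of each of the 12 role groups (y axis) by their best supported MYT1L region (x axis, number of genes): in 4 libraries or in 3 libraries without IgG peak, in 3 or 4 libraries with an IgG peak, in 2 libraries or in 1. A total of 31 genes fall in the blue classes, 3 in the orange one, 13 reach 2 libraries and 4 reach 1.

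Among the cyclins, CCNB1, which codes for the mitotic cyclin B1 (chromosome 5, region 69166754 to 69167507), had folds of 7.25, 5.39 and 7.98 in replicates 1, 3 and 4. CCNA2, which drives S phase and entry into mitosis (chromosome 4, 121823616 to 121824162), had 5.04, 5.85 and 6.56 in the same replicates. Both regions spanned the start and lacked a peak in replicate 2, the shortest MYT1L list; an end of BBS7 lies within 1 kb of the CCNA2 region. CCNE2, a cyclin of the entry into S phase (chromosome 8, 94895230 to 94896294), had 5.55, 7.45, 5.06 and 8.43 in replicates 1 to 4, and an end of NDUFAF6 lies within 1 kb of it. Its partner CCNE1 had a region at its start in replicates 1 and 4 alone, with folds of 4.61 and 7.3.

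The D-type cyclins answer to growth signals in G1. CCND1 had a region inside the gene, 2016 bp from the nearest gene end (chromosome 11, 69643172 to 69643560), with folds of 3.6, 5.23 and 4.11 in replicates 1, 3 and 4. Its mean of 4.31 was the lowest of all 39 reproducible regions at the cell cycle genes. CCND2 had a region in replicates 3 and 4 only, at folds of 3.77 and 4.24, outside the gene and 919 bp from its end. In CCND3 a region of 4 libraries lay 106687 bp downstream of the listed start (chromosome 6, 41941070 to 41942001), with folds of 4.86, 5.33, 5.12 and 7.8 in replicates 1 to 4. That listed start lies 1347 bp inside the gene, and whether the region lies at another start of CCND3 was not examined. A second region, 463 bp beyond the gene on chromosome 6 from 42050498 to 42050854, had a mean fold of 7.14 ± 0.954 (SD, n = 3) and lies within 1 kb of an end of TAF8.

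Among the kinases, CDK1, the kinase of mitosis, had a region over its start (chromosome 10, 60778262 to 60779031) with folds of 6.87, 8.58 and 5.81 in replicates 1, 2 and 4. CDK6, a partner of D-type cyclins, had one 2340 bp downstream of its start (chromosome 7, 92832881 to 92834233) with folds of 4.2, 4.93 and 8.45 in replicates 1, 3 and 4. The spread between libraries was wide there, with 8.45 in replicate 4 and less than 5 in the others. The best supported region in the window of CDK2, the kinase of S phase, lay 699 bp outside the gene (chromosome 12, 55973488 to 55974605), within 1 kb of an end of RAB5B. It had folds of 5.49, 5.37, 5.72 and 10.56 in replicates 1 to 4, so that replicate 4 stood far above the other 3. At the CDK2 gene itself a region was seen in replicates 1 and 4, at 4.17 and 5.96, within 1 kb of an end of PMEL.

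The INK4 proteins block CDK4 and CDK6, and 3 of their 4 genes had a region in all 4 libraries without IgG peak, as did 25.3% of all genes; 4 genes are too few to read this as particular to the family. CDKN2B (chromosome 9, 22008741 to 22009678, spanning the start) had folds of 5.39, 6.56, 4.81 and 8.42 in replicates 1 to 4. There the peaks of replicates 2 and 3 did not overlap each other and were joined through those of replicates 1 and 4. CDKN2A, its neighbour, had 6.41, 6.52, 4.88 and 6.87 in a region 20136 bp downstream of the listed start (chromosome 9, 21974601 to 21975188). A region 506 bp downstream of that start had peaks in replicates 3 and 4 only, at 4.47 and 6.01. A single listed start was used per gene, and whether the farther region lies at another start of CDKN2A was not examined. CDKN2C had the stronger of its 4-library regions 205 bp before its start (chromosome 1, 50959615 to 50960540), with 6.87, 9.84, 5.36 and 12.17 in replicates 1 to 4. That region had a mean fold above 93.2% of all 11091 reproducible regions without IgG peak, and an end of FAF1 lies within 1 kb of it. A further CDKN2C region inside the gene (chromosome 1, 50968939 to 50969958) had 4.58, 6.33, 6.12 and 5.01.

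The CIP/KIP proteins inhibit a wider range of cyclin kinases. CDKN1B, or p27, which is known to rise as neural precursors leave the cycle, had a region over its start (chromosome 12, 12717050 to 12718190) with folds of 5.82, 6.04 and 9.77 in replicates 1, 3 and 4, within 1 kb of an end of GPR19. A further one 2598 bp beyond the gene (chromosome 12, 12724967 to 12725412) had 6.81, 4.68 and 8.09 in the same replicates and lies within 1 kb of an end of APOLD1. CDKN1A, or p21, the inhibitor induced by p53, had at most 2 libraries in any region: the one 576 bp downstream of its listed start had 4.69 and 6.01 in replicates 1 and 4. CDKN1C had a peak in replicate 4 alone, at 5.69. MDM2, which marks p53 for destruction, had a region over its start in all 4 libraries (chromosome 12, 68807936 to 68808903), with 5.88, 5.09, 4.88 and 9.76.

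The E2F genes fall into repressors and activators. A reproducible region without IgG peak was present at 4 of 5 repressors and 1 of 3 activators, against 48.0% of all genes. Without MYT1L replicate 2, where 2 of 3 libraries sufficed, they were 4 of 5 and 3 of 3, against 63.3%. With equal numbers of top peaks they were 2 of 5 and 0 of 3, against 33.7%. The difference between repressors and activators thus moved with the setting and was not tested. E2F6, a repressor that acts without pocket proteins, had folds of 6.37, 7.56, 6.82 and 9.41 in replicates 1 to 4 in a region over its start (chromosome 2, 11465629 to 11466218). E2F5 had 6.67, 5.41, 5.24 and 8.93 (chromosome 8, 85177007 to 85177954). E2F7 had 5.04, 7.55 and 10.11 in replicates 1, 3 and 4 over its start (chromosome 12, 77065257 to 77066052), and E2F8 had 5.27, 5.63 and 6.09 in the same replicates (chromosome 11, 19240886 to 19241485). E2F4 had a single peak, in replicate 4, at 7.69. E2F1, an activator, had 3.9, 5.02 and 5.64 in replicates 1, 3 and 4 over its start (chromosome 20, 33686053 to 33686719). Its mean of 4.85 exceeded only 10.9% of all reproducible regions without IgG peak. E2F2 and E2F3 had regions of at most 2 libraries.

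The pocket proteins, which bind E2F factors, each had a region in 3 libraries and none in 4. RB1 (chromosome 13, 48303223 to 48304317, over the 5′ end of the gene) had 5.15, 8.33 and 8.83 in replicates 1, 2 and 4. The promoter table lists a start for RB1 that lies 172699 bp inside the gene, so this region did not enter the count at starts. RBL2, or p130, the pocket protein of resting cells, had 5.18, 6.67 and 9.93 in replicates 1, 3 and 4 over its start (chromosome 16, 53434411 to 53435480). RBL1, or p107, had 3 regions inside the gene, from 26012 to 94955 bp downstream of the start, with mean folds of 5.36 to 5.95. At the RBL1 start a region was present in replicates 3 and 4 alone, with folds of 4.49 and 10.55.

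**Figure D3:**
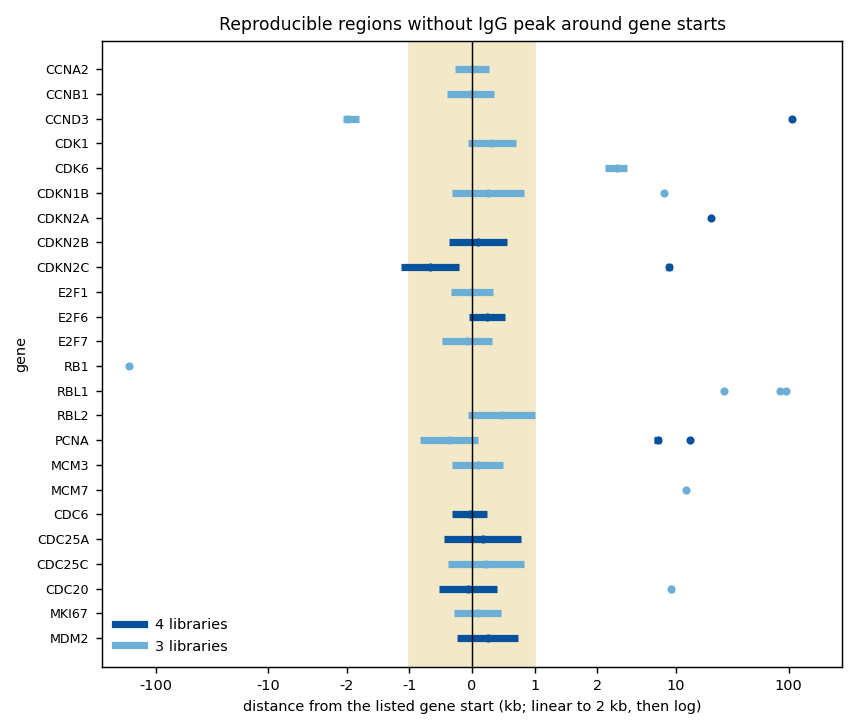
Each bar is a reproducible region without IgG peak, placed by its distance from the listed start of the gene (x axis, kb, linear to 2 kb and logarithmic beyond; rows are genes; dark blue for 4 libraries, light blue for 3; shading marks 1 kb on either side). Of the 32 regions drawn, 18 reach into the shaded band; the CDKN2A and RBL1 regions and the 4-library region of CCND3 lie over 20 kb downstream, and that of RB1 far upstream because its listed start lies inside the gene.

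The highest mean fold was found at PCNA, the sliding clamp of DNA polymerase. A region inside the gene, 6363 bp downstream of the start (chromosome 20, 5119276 to 5120259), had folds of 10.07, 7.05, 7.31 and 14.27 in replicates 1 to 4. Its mean of 9.68 ± 3.35 (SD, n = 4) exceeded that of 98.0% of all reproducible regions without IgG peak, and 24, 11, 18 and 52 fragments lay over its summits. It was the highest value at these genes in replicates 1 and 4, while CDKN2C was higher in replicate 2, at 9.84, and MCM3 in replicate 3, at 9.06. A further region beyond the gene (chromosome 20, 5112823 to 5113552) had 6.41, 5.63, 7.15 and 10.13 and lies within 1 kb of an end of TMEM230. The start of PCNA itself had a region in replicates 1, 3 and 4 (chromosome 20, 5126525 to 5127451), with folds of 7.11, 5.7 and 9.38, within 1 kb of an end of CDS2.

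The MCM genes code for subunits of the replicative helicase. MCM3 had the highest mean fold among the 3-library regions at these genes, 8.41 ± 0.945 (SD, n = 3), over its start (chromosome 6, 52284248 to 52285058), with 7.32, 9.06 and 8.84 in replicates 1, 3 and 4. MCM4 had 5.74, 6.42 and 6.9 in the same replicates (chromosome 8, 47960735 to 47961351), within 1 kb of an end of PRKDC. The reproducible region in the MCM7 window lay 3309 bp from the gene, within 1 kb of an end of COPS6, while the MCM7 start had peaks in replicates 1 and 4, at 3.19 and 6.12. MCM2 and MCM6 reached 2 libraries at their starts, and MCM5, for which no start is listed, reached 2 at a gene end. CDC6, which loads the helicase, had a region over its start in all 4 libraries (chromosome 17, 40287562 to 40288116), with 5.34, 6.83, 5.35 and 6.12. CDT1, its partner, reached 2 libraries, at 3.52 and 5.83, in a region 1943 bp from the gene.

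The CDC25 phosphatases remove the inhibitory phosphates from cyclin kinases. CDC25A, which activates CDK2 and CDK1, had a region over its start in all 4 libraries (chromosome 3, 48187633 to 48188867), with 4.63, 5.74, 4.93 and 8.2. CDC25C, which acts at entry into mitosis, had 5.72, 3.92 and 7.98 in replicates 1, 2 and 4 over its start (chromosome 5, 138337529 to 138338732), and an end of FAM53C lies within 1 kb. CDC25B had no region of more than 1 library. CDC20, the activator of the anaphase-promoting complex, had 4.19, 4.93, 5.36 and 8.34 over its start (chromosome 1, 43358445 to 43359387) in replicates 1 to 4. A further CDC20 region 4448 bp from the gene had a mean fold of 6.57 ± 1.39 (SD, n = 3), within 1 kb of an end of ELOVL1. The kinase gene AURKA had 5.22, 7.95 and 9.42 in replicates 1, 2 and 4 (chromosome 20, 56391985 to 56392914), within 1 kb of an end of CSTF1. AURKB, PLK1 and BUB1 reached 2 libraries, each at the start, and BUB1B had a single peak, in replicate 4. Of the proliferation markers, MKI67 had 5.32, 6.08 and 5.91 in replicates 1, 3 and 4 over its start (chromosome 10, 128125954 to 128126708), and TOP2A had 5.83 and 8.14 in replicates 3 and 4.

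**Figure D4:**
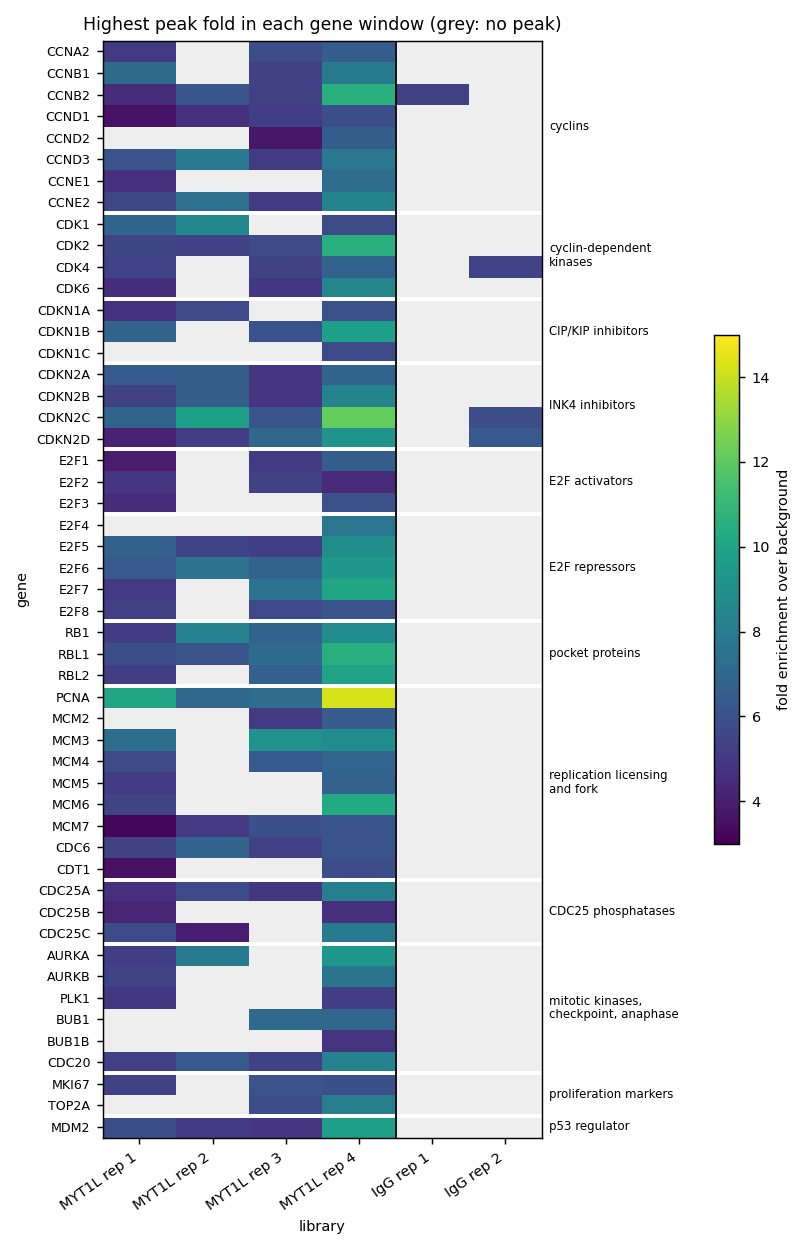
Colour gives the highest fold enrichment of any peak in the window of each of the 51 genes (rows, grouped by role) in each library (columns), and grey marks no peak. The column of MYT1L replicate 4 is filled throughout, that of replicate 2 has 23 filled cells, and the IgG columns have 1 and 3; the brightest cell is PCNA in replicate 4, at 14.27.

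In the 4 genes whose window held an IgG peak, the controls were as enriched as some MYT1L libraries. IgG peaks were present at 7.84% of the cell cycle genes and 4.16% of all genes. A reproducible MYT1L region that overlapped an IgG peak was present at 3 of the 51, or 5.88%, against 3.36% of all genes. At the start of CCNB2, cyclin B2 (chromosome 15, 59105051 to 59105580), folds were 4.58, 6.21, 5.27 and 10.64 in MYT1L replicates 1 to 4 and 5.27 in IgG replicate 1. At the start of CDK4 (chromosome 12, 57752128 to 57752670) they were 5.22, 5.35 and 6.25 in MYT1L replicates 1, 3 and 4 and 5.4 in IgG replicate 2. At the start of CDKN2D (chromosome 19, 10568414 to 10569216) they were 4.2, 5.23, 6.96 and 9.19 in MYT1L replicates 1 to 4 and 6.37 in IgG replicate 2. The IgG peaks stood on 6, 7 and 9 fragments. At all 3 genes the IgG fold lay within the range of the MYT1L folds. These regions were left out of the counts without IgG peak, although those of CCNB2 and CDKN2D had peaks in all 4 MYT1L libraries. The remaining IgG peak, with a fold of 5.83 in replicate 2, fell in a region 3163 bp beyond CDKN2C, where MYT1L replicates 1 and 3 had 5.95 and 4.39.

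Over the 39 reproducible regions without IgG peak at these genes, the mean fold ranged from 4.31 to 9.68 with a median of 6.4, against 6.29 for all such regions of the genome. The number of fragments at the summit in a library ranged from 6 to 52 with a median of 14, so a single value rests on few fragments. Only 3 regions were in the top 10% by mean fold, those of PCNA, CDKN2C and MCM3. The share of regions in all 4 libraries was 38.5% (15 of 39), against 45.4% genome-wide. Among regions of 3 libraries the missing library was replicate 2 in 15 of 24 cases (62.5%) and replicate 3 in 8 (33.3%); over the genome the shares were 64.8% and 24.2%. Replicate 4 had the highest fold in 13 of the 15 regions of 4 libraries, compared with 74.5% of such regions genome-wide. The median fold of all peaks in the windows was 5.17, 6.16, 5.36 and 6.12 in replicates 1 to 4, a mean of 5.7 ± 0.512 (SD, n = 4), against 4.99, 5.59, 5.27 and 5.92 in the windows of all protein-coding genes, a mean of 5.44 ± 0.403 (SD, n = 4). The cell cycle windows were thus higher in 4 of 4 libraries; this difference within libraries was not tested.

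**Figure D5:**
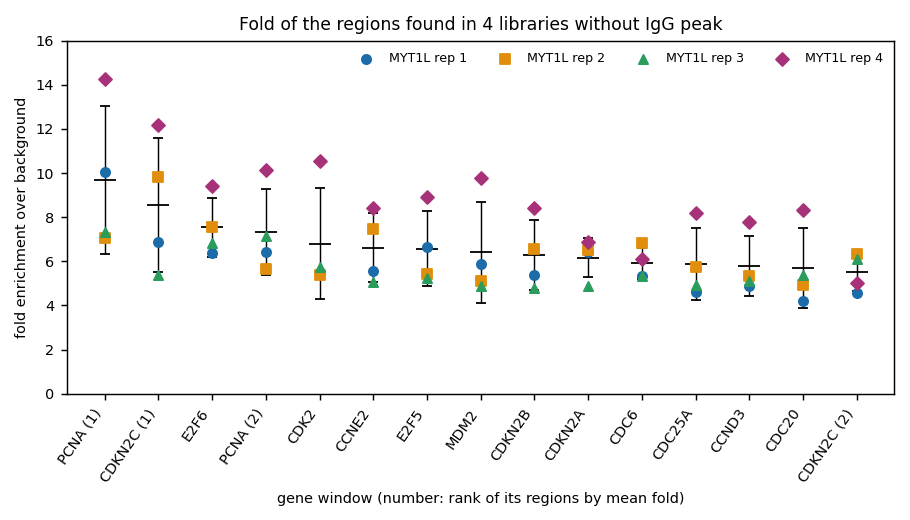
Points give the fold enrichment (y axis, from 0) in each MYT1L library of the 15 regions found in all 4 libraries without IgG peak, ordered by mean fold along the x axis; black bars are the mean and SD (n = 4). Replicate 4 is the highest point in 13 of the 15, and the mean falls from 9.68 at PCNA to 5.51 at the second CDKN2C region.

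Of the 20 genes without a reproducible region free of IgG peaks, 3 had one with an IgG peak, 13 reached 2 libraries and 4 reached 1. The 2 libraries were replicates 1 and 4 in 9 of the 13 genes and replicates 3 and 4 in the other 4, and in none of them replicate 2. In 11 of the 13 the region lay within 1 kb of the gene start, or of either end where no start is listed. CDK4 and CDKN2D, counted among the 3 genes with an IgG peak, also had separate regions of 2 libraries without one. Asking for 2 libraries in place of 3 gave 46 of 51 genes, or 90.2%, against 65.3% of all protein-coding genes.

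Position relative to the start was compared for the 41 genes with a listed start. Of their 32 reproducible regions without IgG peak, 18 (56.2%) reached within 1 kb of the start, and the same 18 overlapped the 300-base promoter. Over all protein-coding genes with a listed start the share was 67.6% of 9512 pairs of a gene and a region. Both shares rest on a single listed start per gene, so a region at another start counts as away. The RB1 region over the 5′ end of its gene is such a case, since the listed start lies 172699 bp inside. The difference between the shares was not tested. Of the 39 regions, 32 touched the gene and 7 lay beyond it, and 14 had an end of another protein-coding gene within 1 kb. When those 14 were left out, 23 of the 51 genes had a region in the window, against 34.8% of all genes, and 15 had a region at the start, against 27.9%.

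The promoters of 6 genes are shown because each holds part of a region found in all 4 libraries without IgG peak, and has the highest mean fold among such genes of its role. Not every peak of a region reached the printed bases: in CDKN2C only that of replicate 4 did, and in E2F6 that of replicate 1 did not. They run from 250 bases before the start to the 50th base from it, 5′ to 3′ on the strand of the gene, and are from RefSeq, build GRCh38.p14. Capitals mark matches on either strand to the letters AAGTT (a short core of the MYT1 family), to the E2F sites TTTCGCGC, TTTGGCGC, TTTCCCGC and TTTGCCGC, to the cell cycle homology region TTTGAA or TTCGAA, and to CCAAT, the box bound by NF-Y.
CDKN2C (chr1:50960495-50960794, plus strand): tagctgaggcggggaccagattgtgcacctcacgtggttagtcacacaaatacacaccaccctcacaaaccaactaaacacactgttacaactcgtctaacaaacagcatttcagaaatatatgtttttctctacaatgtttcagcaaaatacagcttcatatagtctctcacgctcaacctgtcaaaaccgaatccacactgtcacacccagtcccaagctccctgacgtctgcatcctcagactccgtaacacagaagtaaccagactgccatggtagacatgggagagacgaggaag
E2F6 (chr2:11466112-11466411, minus strand): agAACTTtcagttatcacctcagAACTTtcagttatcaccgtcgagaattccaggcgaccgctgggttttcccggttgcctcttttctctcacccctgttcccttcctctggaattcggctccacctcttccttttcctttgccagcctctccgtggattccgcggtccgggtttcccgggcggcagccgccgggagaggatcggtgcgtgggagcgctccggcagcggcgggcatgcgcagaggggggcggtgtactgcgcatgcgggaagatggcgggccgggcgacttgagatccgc
MDM2 (chr12:68807922-68808221, plus strand): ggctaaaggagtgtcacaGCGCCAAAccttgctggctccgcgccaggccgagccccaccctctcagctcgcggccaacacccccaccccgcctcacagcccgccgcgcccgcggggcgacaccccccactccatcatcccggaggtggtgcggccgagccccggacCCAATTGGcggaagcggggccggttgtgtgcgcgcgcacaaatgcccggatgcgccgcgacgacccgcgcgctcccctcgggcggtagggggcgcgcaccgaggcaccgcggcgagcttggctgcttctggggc
CDC6 (chr17:40287629-40287928, plus strand): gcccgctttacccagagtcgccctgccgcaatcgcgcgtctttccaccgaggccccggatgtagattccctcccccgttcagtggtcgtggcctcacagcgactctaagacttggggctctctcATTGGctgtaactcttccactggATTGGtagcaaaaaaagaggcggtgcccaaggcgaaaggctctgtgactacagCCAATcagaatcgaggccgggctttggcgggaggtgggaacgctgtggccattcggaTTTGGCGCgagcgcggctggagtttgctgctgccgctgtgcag
CDC25A (chr3:48188368-48188667, minus strand): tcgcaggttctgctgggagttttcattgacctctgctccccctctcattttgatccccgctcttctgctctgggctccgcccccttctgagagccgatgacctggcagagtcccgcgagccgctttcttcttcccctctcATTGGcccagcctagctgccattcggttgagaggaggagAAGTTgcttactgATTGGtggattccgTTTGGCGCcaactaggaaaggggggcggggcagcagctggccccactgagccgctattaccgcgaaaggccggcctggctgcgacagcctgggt
CDC20 (chr1:43358731-43359030, plus strand): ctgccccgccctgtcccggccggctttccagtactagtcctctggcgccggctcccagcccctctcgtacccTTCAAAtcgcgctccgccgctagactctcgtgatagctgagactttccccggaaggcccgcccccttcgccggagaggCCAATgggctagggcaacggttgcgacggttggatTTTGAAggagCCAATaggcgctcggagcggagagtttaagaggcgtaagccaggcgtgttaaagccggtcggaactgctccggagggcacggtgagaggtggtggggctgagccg

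The CDC6 and CDC25A promoters each held 1 E2F site, TTTGGCGC, at the 8th base from the start and 44 bp before it, together with 3 and 2 CCAAT boxes. In CDC20 a TTTGAA element 65 bp before the start stood between CCAAT boxes 100 and 55 bp before it. A further TTTGAA match in CDC20 lay 178 bp before the start on the opposite strand, outside that pair of boxes. In MDM2 the E2F letters lay 232 bp before the start on the opposite strand. E2F6 held AAGTT on the opposite strand 248 and 227 bp before the start. Both matches lie outside the MYT1L region of E2F6, which covers only the part of the promoter nearest the start. CDC25A also held AAGTT, 71 bp before the start. That match lies inside the MYT1L region of CDC25A and inside its peaks of replicates 1, 3 and 4, but not of replicate 2. The CDKN2C promoter held none of the letters, and most of its region lies before these bases and was not read. Such matches describe the sequence and do not show that a factor was bound.

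Over the 41 cell cycle promoters in the table, 14 (34.1%) held an E2F site, against 4.44% of 15841 promoters of protein-coding genes. CCAAT was present in 22 (53.7%), against 36.4%, and TTTGAA or TTCGAA in 11 (26.8%), against 13.5%. The longer MYT1-family core AAAGTTT was present in 0 of the 41 promoters, against 3.56% of all, and its short form AAGTT, which it contains, in 9 (22%), against 29.3%. RB1 is among the 9, but its bases were read at a listed start 172699 bp inside the gene. The RB1 region over the 5′ end of the gene does not count as a region at the start below. E2F sites stood in 7 of the 18 promoters with a reproducible region at the start (CDK1, MDM2, CDC6, PCNA, E2F1, CDC25A and MCM3) and in 7 of the 23 without (E2F2, E2F3, CDT1, MCM2, MCM6, MCM7 and RBL1). The latter 7 promoters each overlapped a region of 1 or 2 libraries, so they were not free of peaks. The 23 also include CCNB2, CDK4 and CDKN2D, whose reproducible regions at the start overlapped an IgG peak. Over all genes E2F sites stood in 6.1% of promoters with a region and 3.31% of those without. CCAAT stood in 13 of the 18 and 9 of the 23 (38.3% and 35.1% over all genes), TTTGAA or TTCGAA in 4 and 7 (9.21% and 16.4%), and AAGTT in 3 and 6 (22.5% and 33.9%); none of these splits was tested. GC content moved with regions over the genome, with a median of 67.0% in promoters that had one and 58.7% in the others; among the cell cycle genes the medians were 63.7% and 64.7%, and its part in the result was not tested.

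The same count was made for 50 other cell cycle genes, among them subunits of the origin recognition complex, checkpoint kinases and parts of the DREAM complex, which represses cell cycle genes in resting cells. Of these, 35 (70.0%) had a reproducible region without IgG peak in the window, against 48.0% of all genes, 32 (64.0%) had one at the start, against 38.5%, and 22 (44.0%) had one in all 4 libraries, against 25.3%. Their median length was 37.3 kb. CKS2, a small subunit of cyclin kinases, had a region with a mean fold of 9.67, and the replication kinase subunit DBF4 one of 8.19, each in all 4 libraries. TFDP2, the partner of E2F factors, reached 8.45 and FOXM1, an activator of mitotic genes, 8.36, both in 3 libraries. The 15 without such a region included GINS1, GINS2 and GINS3 of the replication fork, ORC1, ORC5, ORC6, MYBL2 and TTK. Among the 51 genes 13, or 25.5%, had a region in all 4 libraries; the difference between the lists was not tested.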

How the data were processed

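CUT&RUN peaks of 4 MYT1L and 2 IgG libraries of H1 cells at day 30 were used as deposited. Peaks were called with MACS2 on hg38, per the submitters' processing notes; settings, control library and threshold are not given in the sources used here. Each deposited peak has a fold enrichment (ratio), a −log10 p, a −log10 q (lowest values 2.0 to 2.01) and a deposited score. Groups and replicate numbers follow the sample titles; the peak names in the MYT1L lists carry numbers 1 higher.

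Peaks on chromosomes 1 to 22, X and Y were joined into regions by overlap of at least 1 bp; bedtools 2.31.1 gave the same 49028 regions. Gene positions and 300-base promoters are from RefSeq GRCh38.p14; coordinates count from 1, and exons and introns were not assigned. A start is listed for 41 of the 51 genes and 15841 of 20033; CCND1, CCND2, CCNE2, CDK2, CDKN1C, E2F5, E2F8, MCM4, MCM5 and AURKA have none. Where a gene had 1 fold per library, the highest peak of the region was taken. Pileups in fragments were solved from fold and −log10 p under the MACS formulas: a whole number fitted 100% of 245 peaks within 0.0002, and a value midway between whole numbers 0.408%. Per-library counts were compared by exact permutation in Python 3.11.15; region building and pileups were tested on simulated data.

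The genes, lists and tests were chosen with earlier results of these data known. By rule, all 51 genes are accounted for, those with regions in all 4 libraries or with IgG peaks by their value in every library, and promoters are shown for the gene of highest mean fold per role, chromosome 8 left out. Alternatives covered the −log10 q threshold, list length, number of libraries, windows, overlap, IgG regions, depth and each library left out.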

Additional observations from a re-analysis of the deposited data

Results flagged for a closer look

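Of 20 sets of 4 MYT1L values checked for a library far from the others, 2 stood out, and chance flags about 1 in 20 such sets. At the CDK2 window, in the region on chromosome 12 from 55973488 to 55974605, replicate 4 had a fold of 10.6 while the others lay between 5.37 and 5.72; the gap was 0.933 of the whole range, above Dixon's 95% critical value for 4 samples. At CCND3, in the region on chromosome 6 from 41941070 to 41942001, replicate 4 had a fold of 7.8 and the others 4.86 to 5.33, a gap of 0.84 of the range. Replicate 4 was also the highest library in 74.5% of all regions found in 4 libraries without IgG peak.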

How the results depend on the processing

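The 31 genes with a reproducible region became 18 when peaks needed a −log10 q of 5 or more (30.6% of all genes), 17 with equal numbers of top peaks (33.7%) and 13 with all 4 libraries (25.3%). With equal numbers of top peaks the 17 genes, 33.3% of the list, stood at the background. The count at starts, 24, became 14 under that q limit (27.5%, against 24.6% of all genes), 15 with equal numbers of top peaks (29.4% against 27.5%), 38 with at least 2 libraries (74.5% against 52.6%), 10 with all 4 (19.6% against 20.0%) and 15 without regions near another gene end (29.4% against 27.9%). Each of these settings keeps a different set of peaks or asks for another number of libraries. Leaving out each library in turn gave 31 to 46 genes in the window and 24 to 38 at starts, both highest without MYT1L replicate 2, where 2 of 3 libraries sufficed (50.9% of all genes at starts). The list of 50 other genes, 35 with a region, gave 36 to 41 when each library was left out (48.7% to 63.3% of all genes), 25 under the q limit (against 30.6% of all), 28 with equal numbers of top peaks (56.0% against 33.7%) and 22 with all 4 libraries (44.0% against 25.3%).

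The differences between MYT1L and IgG libraries, 36.5 genes and 58.2 peaks, ranged from 32.3 to 41.7 genes and from 47.0 to 68.7 peaks without 1 library. Both turned to -1.50 among the 976 strongest peaks per library; the cause was not tested. With the replicate block, pairing libraries 1 and 2 by number, they were 31.5 genes and 46.5 peaks (exact permutation, p = 0.5, the smallest that 2 pairs allow); the labels do not say that a number marks a shared culture. The mean median fold, 5.7, was 6.35 under the stricter q limit and 6.22 with the highest peak of each gene; it ranged from 5.55 to 5.88 without 1 library. The alternatives on depth, on listed starts alone and on neighbouring gene ends, and those of the other list, were chosen after the data were seen.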
